A study of Homo sapiens with 6 samples.

Results

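Activins are secreted dimers of beta subunits and belong to the TGF-beta superfamily. A dimer binds a type II receptor, which recruits and phosphorylates a type I receptor, and the type I receptor then phosphorylates SMAD2 and SMAD3, which enter the nucleus with SMAD4. Follistatins bind activin outside the cell and keep it from its receptors, and mesothelioma cells are a known source of activin A. The 10 genes described here are the beta subunit genes INHBA, INHBB and INHBE, the activin-binding proteins FST and FSTL3, the related secreted glycoprotein FSTL1, the type I receptors ACVR1 and ACVR1B and the type II receptors ACVR2A and ACVR2B. The set was chosen by pathway with the HC278 against DMSO counts of these same libraries known, and was taken by symbol from the 60676 genes of the deposited table, where all 10 were found, and all 10 were among the 15510 genes with enough counts to be tested.

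RNA had been sequenced from NCI-H226, an established human mesothelioma line labelled as pleura, in 6 libraries. The 3 DMSO libraries (replicates 1, 2 and 3) came from cells given the vehicle, and the 3 HC278 libraries (replicates 1, 2 and 6) from cells given 500 nM of HC278, also written HC31278A in the labels, both for 24 h. HC278 is described by the title of the series as a TEAD degrader, TEAD being the family of DNA-binding factors through which the co-activators YAP1 and WWTR1 act, and the comparison asks which transcripts differ under it. Whether the replicates are separate cultures is not in the labels, and the p-values rest on the spread among 6 libraries, part or all of which may be technical. Libraries held 30486316 to 33181814 counts in genes. HC278 replicate 6 stood apart from the other HC278 libraries: a chi-square of its gene counts divided by the degrees of freedom was 197 and 313 against them, while pairs of DMSO libraries gave 4.02 to 47.8. The log2 difference of most members is therefore also given without it. Group means, shares and most values of other genes below include it. Of 10 mesothelial markers 9 were tested, and KRT5 alone had 0 or 1 count per library. Their summed level ran from 5689 to 7915 CPM (counts scaled to the library's TMM-adjusted total) with DMSO and from 5794 to 11140 CPM with HC278. Most of this sum was the keratins KRT8, KRT18, KRT7 and KRT19, at means of 2622, 1779, 1317 and 960 CPM with DMSO. CALB2 and UPK3B were called higher. The other 7 tested markers were not called, PDPN (log2 -0.29) and WT1 (log2 -0.27) being below 0 and the rest above. Of 5 fibroblast markers, which summed to at most 4.82 CPM in any library, DCN had at most 1 count and LUM 0. COL1A1, the only tested gene of that list, had 79 to 147 counts per library and was not called. Of 8 immune and endothelial markers, CD3E had 0 counts and PTPRC at most 11, while the sum of the list was 38.6 to 39.3 CPM with DMSO and 64.1 to 78.7 CPM with HC278, nearly all of it CD68. CD68 and CD14 were called higher (log2 0.91 and 1.33, edgeR adjusted p = 0.0100 and 0.0322), 2 of the 3 tested genes of that list. The part of these markers in the results below was not tested, and in bulk RNA fewer cells of a type and less RNA per cell cannot be told apart.

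Promoter sequence was read for the members because they differ in how they responded while TEAD, AP-1 and SMAD factors each have a short known motif. RefSeq promoter windows of build GRCh38.p14, from 250 bases before to 50 after a start, were at hand for 9 of the 10 members, 12 windows in all. The TEAD motif GGAATG, searched on both strands, occurred in windows of ACVR1 and ACVR2B and in none of INHBA, INHBB, FST or FSTL1, against 14.0% of all 35116 windows. The AP-1 motif TGANTCA occurred in windows of FST, from base -160 counted from the start, and of ACVR1, against 7.71% of all windows. The SMAD motif CAGAC, on both strands, occurred in windows of INHBA, ACVR1, ACVR1B and ACVR2A, against 45.3%. The shares are of single windows, while ACVR1 and ACVR1B each have windows at alternative starts. In ACVR1 the TEAD and AP-1 matches lie in windows of different starts. No matches of different motifs overlapped in these windows. The windows of FSTL1 and ACVR2A begin within an annotated exon of the gene. The INHBA window lies inside the span of the gene in the deposited table, and the bases before the 5′ end of that span, at 41705834, were not read. In that of FST an annotated exon follows base -221, ahead of the AP-1 match. A match is a stretch of letters only, and these windows hold no distal element.

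Shown here are the bases before the start of the subunit genes INHBA and INHBB, which fell, and of ACVR2B, a receptor gene with a TEAD match, whose 6 matching letters are in capitals (the reverse complement of the motif). Each run starts 250 bases before the RefSeq start, reads 5′ to 3′ on the gene's own strand, and stops at the first base of an annotated exon of the gene. They are chr7:41703109-41703340 on the minus strand, chr2:120345886-120346135 on the plus strand and chr3:38453640-38453850 on the plus strand.
INHBA: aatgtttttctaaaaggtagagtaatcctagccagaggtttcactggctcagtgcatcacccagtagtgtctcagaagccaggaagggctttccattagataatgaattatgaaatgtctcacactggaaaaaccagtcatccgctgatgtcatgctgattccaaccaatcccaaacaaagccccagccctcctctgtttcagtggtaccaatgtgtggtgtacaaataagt
INHBB: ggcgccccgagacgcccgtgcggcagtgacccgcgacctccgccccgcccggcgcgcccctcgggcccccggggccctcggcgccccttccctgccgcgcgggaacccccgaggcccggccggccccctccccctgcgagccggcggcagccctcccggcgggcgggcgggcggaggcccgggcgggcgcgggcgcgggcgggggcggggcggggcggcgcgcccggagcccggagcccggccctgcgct
ACVR2B: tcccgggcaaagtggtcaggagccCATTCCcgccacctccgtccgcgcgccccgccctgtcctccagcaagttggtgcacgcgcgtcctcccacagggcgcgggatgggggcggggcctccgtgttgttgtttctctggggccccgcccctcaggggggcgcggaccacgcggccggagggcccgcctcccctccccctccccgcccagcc
The 250 bases before the INHBA start had a GC content of 42.8% and 1 CpG, those of INHBB 89.6% and 46 CpGs, and those of ACVR2B 74.0% and 26, against medians of 58.0% and 11 over all windows.

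Under HC278 the transcripts of INHBA, INHBB, FST and FSTL1 fell to between 13.9% and 33.8% of their DMSO level, while FSTL3, INHBE and the 4 receptors overlapped between the groups. The difference between DMSO and HC278 in these same libraries was known when the members were proposed, so it is given here as a description, with no p-value for a member. A gene is called where its adjusted p was under 0.05 over all tested genes (edgeR quasi-likelihood test, Benjamini-Hochberg). By that measure 4 of 10 members were lower and 0 higher, beside 5.38% of all tested genes called lower, 5.40% called higher and 10.8% in either direction. These were 835 lower and 837 higher genes, a split that became 673 lower and 1009 higher with upper quartile factors, which moved the median of all genes from 0.05 to 0.12. The same 4 members had every HC278 library below every DMSO library, as had 17.5% of all tested genes. The median log2 difference of the 10 members was -0.04, against 0.05 over all tested genes.

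**Figure D1:**
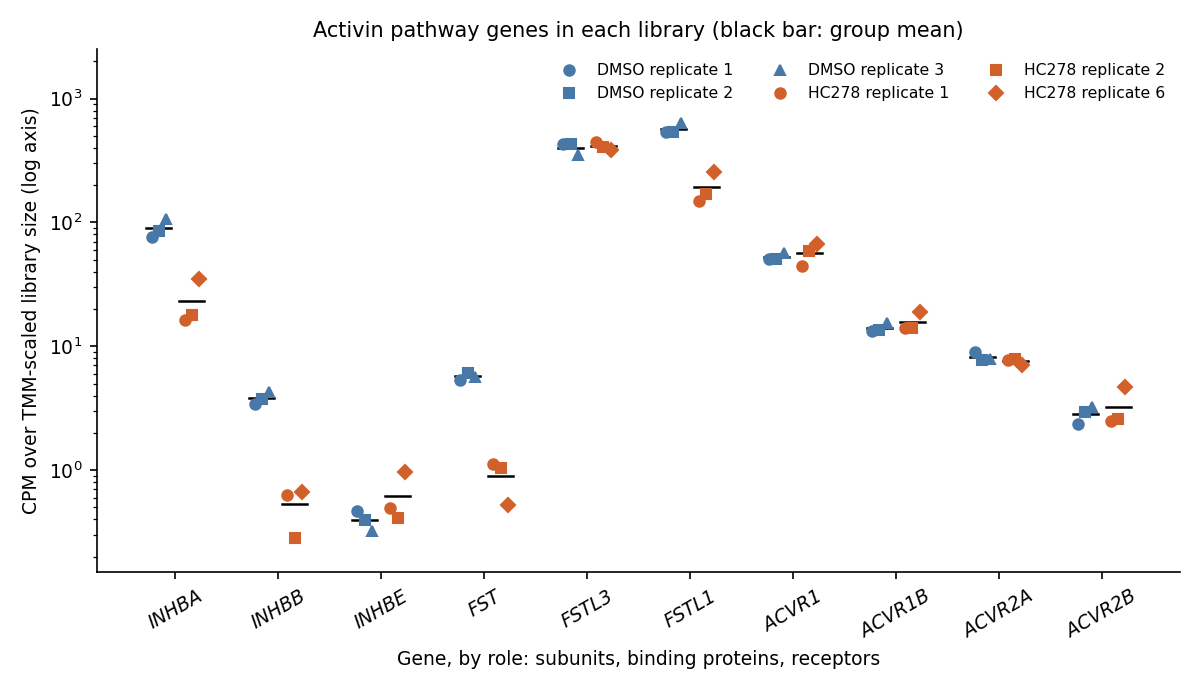
Level of each of the 10 genes in each of the 6 libraries, in CPM over the TMM-scaled library size on a log axis, with DMSO in blue, HC278 in orange, a marker shape per replicate number and a black bar at the group mean. INHBA, INHBB, FST and FSTL1 have no overlap between the groups, and the other 6 genes do.

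INHBA encodes the subunit of activin A and was the most abundant subunit transcript. Its locus in hg38 is chromosome 7, 41667168 to 41705834, minus strand (ENSG00000122641). Its levels were 76.0, 85.3 and 107 CPM in DMSO replicates 1, 2 and 3, and 16.3, 17.7 and 35.1 CPM in HC278 replicates 1, 2 and 6. HC278 replicate 6 was 2.06 times the mean of the other HC278 libraries, yet below every DMSO library, the lowest of which was 2.16 times as high. The group values were 89.6 ± 16.1 CPM with DMSO and 23.0 ± 10.5 CPM with HC278 (SD, n = 3 each), a log2 difference of -1.96 (SE 0.33). It became -2.40 without HC278 replicate 6. The opposite-strand gene INHBA-AS1 overlaps INHBA but held only 0.297% as many counts.

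INHBB encodes the subunit of activin B and fell 7.18-fold in mean CPM. The gene (ENSG00000163083) spans 120346136 to 120351803 of chromosome 2, plus strand. Its counts were 109, 124 and 144 in the DMSO libraries and 18, 9 and 23 in HC278 replicates 1, 2 and 6. In CPM these were 3.41, 3.74 and 4.25 with DMSO and 0.630, 0.285 and 0.672 with HC278. The groups stayed far apart, the lowest DMSO library being 5.08 times the highest HC278 library, but the HC278 libraries themselves spread 2.36-fold on these few counts. The log2 difference was -2.84 (SE 0.34), and -3.07 without HC278 replicate 6. It was more negative than that of FST with all libraries, but less so without HC278 replicate 2 (-2.54 against -2.80).

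INHBE (ENSG00000139269; chromosome 12, 57452323 to 57459280, plus strand) encodes a subunit known mainly from liver. It was scarcely detected, with 15, 13 and 11 counts in the DMSO libraries and 14, 13 and 33 in the HC278 libraries. In counts only HC278 replicate 6 lay above the DMSO range, and the log2 difference of 0.66 (SE 0.40) was 0.18 without that library. The opposite-strand gene AC022506.2 overlaps INHBE and held 34.3% as many counts, so part of this low signal is uncertain.

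FST encodes follistatin, the classical activin antagonist, and fell as INHBA and INHBB did. The gene (ENSG00000134363) spans 53480626 to 53487134 of chromosome 5, plus strand. Its levels were 5.38, 6.07 and 5.67 CPM with DMSO and 1.12, 1.04 and 0.526 CPM in HC278 replicates 1, 2 and 6. Unlike INHBA, FST was lowest in HC278 replicate 6, at 0.485 of the mean of the other HC278 libraries. The means were 5.70 ± 0.345 and 0.897 ± 0.324 CPM (SD, n = 3 each), with a log2 difference of -2.67 (SE 0.30) that was -2.40 without HC278 replicate 6.

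FSTL3, a shorter relative of FST that also binds activin, was not called. The gene (ENSG00000070404) spans 676392 to 683392 of chromosome 19, plus strand. It had 427, 427 and 352 CPM with DMSO and 446, 404 and 382 CPM with HC278, and the groups overlapped throughout. The log2 difference was 0.03 (SE 0.14), 0.08 without HC278 replicate 6 and -0.06 without DMSO replicate 3, and it also turned just below 0 with no filter on low counts and with the length trend taken out.

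FSTL1 is a secreted glycoprotein named for its follistatin-like domain. The gene (ENSG00000163430) spans 120392293 to 120450993 of chromosome 3, minus strand. It was at 535, 541 and 629 CPM with DMSO and at 149, 170 and 257 CPM in HC278 replicates 1, 2 and 6. All HC278 libraries lay below all DMSO libraries, replicate 6 being nearest to them as for INHBA. The log2 difference was -1.57 (SE 0.23), from 568 ± 52.6 to 192 ± 57.3 CPM, and -1.84 without HC278 replicate 6.

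The 4 receptor genes were not called and had log2 differences between -0.11 and 0.18. ACVR1B, the type I receptor that carries activin signals (chromosome 12, 51951699 to 51997078, plus strand), had 13.3, 13.6 and 15.3 CPM with DMSO and 14.0, 14.2 and 18.8 CPM with HC278. ACVR1, a type I receptor that mainly serves bone morphogenetic proteins (chromosome 2, 157736444 to 157876330, minus strand), had 51.1, 50.2 and 56.6 CPM with DMSO and 44.3, 58.3 and 67.5 CPM with HC278. In both genes HC278 replicate 6 was the highest library, and their log2 differences of 0.16 (SE 0.16) and 0.11 (SE 0.17) were -0.00 and -0.04 without it. The type II receptor ACVR2A (chromosome 2, 147844517 to 147930826, plus strand) had 8.98, 7.76 and 7.82 CPM with DMSO and 7.74, 7.85 and 7.10 CPM with HC278. The type II receptor ACVR2B (chromosome 3, 38453890 to 38493142, plus strand) had 2.38, 2.96 and 3.25 CPM with DMSO and 2.49, 2.56 and 4.67 CPM with HC278. In CPM ACVR2A varied least of the 10 genes within the HC278 group, by 1.11-fold from lowest to highest, a rank that did not hold in the TPM described below. ACVR2A had a log2 difference of -0.11 (SE 0.13), while ACVR2B was at 0.18 (SE 0.30) and at -0.18 without HC278 replicate 6. ACVR2A is uncertain because the opposite-strand gene ORC4 overlaps its end and held 531% as many counts, and the strand setting of the counting is not given in the sources used here.

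**Figure D2:**
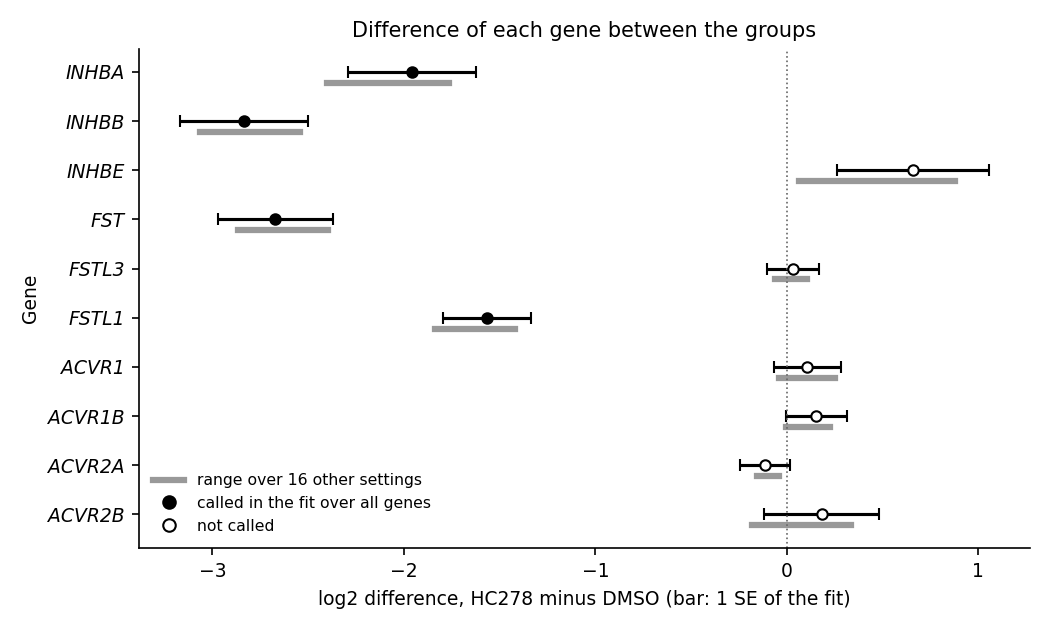
Log2 difference of each of the 10 genes between HC278 and DMSO (points, with 1 SE of the fit over all genes), and in grey the range over 16 other settings. Filled points are the 4 called genes, whose ranges lie between -3.07 and -1.42, and open points are the other 6, whose ranges lie between -0.18 and 0.88.

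The calls of the 4 lower members depended on single libraries, as did those over all genes. The log2 differences of these members kept the same sign, which groups without overlap all but fix. INHBB and FST were called without DMSO replicate 3 or HC278 replicate 2, where 246 of 15945 and 252 of 15881 tested genes were called. INHBB, FST and FSTL1 were called without HC278 replicate 1, where 819 of 15891 genes were. All 4 were called without HC278 replicate 6, a fit in which 40.6% of all genes were called. None was called without DMSO replicate 1 or without DMSO replicate 2, where 164 of 15999 and 0 of 15979 genes were called. In each of these last fits, with edgeR the only tool run on them, 4 members had an unadjusted p under 0.05. So had 2992 and 2864 of all tested genes in the same fits. As the members were chosen with this contrast known, that count of members is a description only. Under every other scaling, filter and tool tried on all 6 libraries, the same 4 members were called. Those fits called from 1215 of 32091 tested genes (no filter) to 2818 of 15510 (DESeq2).

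Set side by side per length, in the authors' TPM (transcript abundance scaled to gene length and to a fixed total per library), the DMSO libraries held far more binding-protein than subunit transcript. FSTL3 was highest at 423 ± 17.6 TPM (SD, n = 3), followed by FSTL1 at 217 ± 36.7 TPM. ACVR1 at 37.9 ± 5.36 TPM and INHBA at 35.0 ± 9.03 TPM came next and overlapped each other. ACVR1B at 8.03 ± 1.25 TPM overlapped FST at 6.66 ± 0.645 TPM, and ACVR2A at 4.07 ± 0.277 TPM overlapped INHBB at 3.83 ± 0.714 TPM. ACVR2B at 0.589 ± 0.130 TPM and INHBE at 0.414 ± 0.0494 TPM were lowest and overlapped. With HC278 the order changed at the lower end. FST at 0.953 ± 0.166 TPM now lay below ACVR2A at 3.62 ± 0.708 TPM, with no overlap. INHBB at 0.527 ± 0.294 TPM was last, and it overlapped ACVR2B at 0.682 ± 0.439 TPM, which overlapped INHBE at 0.683 ± 0.503 TPM.

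The summed TPM of INHBA, INHBB and INHBE was 31.6, 36.1 and 50.2 in the DMSO libraries and 5.83, 6.69 and 19.0 in HC278 replicates 1, 2 and 6. INHBA made up nearly all of it in both groups, at 89.1% ± 0.906 with DMSO and 88.0% ± 3.07 with HC278 (SD, n = 3). The share of INHBB went from 9.84% ± 0.551 to 5.54% ± 2.55, and that of INHBE from 1.11% ± 0.371 to 6.43% ± 0.634 of a much smaller sum. FST and FSTL3 together were at 434, 445 and 411 TPM with DMSO and at 370, 378 and 504 TPM with HC278, of which FST was 1.55% ± 0.189 and 0.237% ± 0.0747. The unit changed the place of HC278 replicate 6: FSTL3 was highest there among the HC278 libraries in TPM (369, 377 and 504 in replicates 1, 2 and 6) and lowest in CPM (446, 404 and 382). INHBA was at 4.93, 6.05 and 16.9 TPM in the same libraries, a wider gap than in CPM. The ratio of FST plus FSTL3 to subunit transcripts, which does not depend on how libraries are scaled, was 13.7, 12.3 and 8.19 in the DMSO libraries and 63.4, 56.5 and 26.5 in the HC278 libraries. All HC278 libraries lay above all DMSO libraries in this ratio, with replicate 6 the nearest. The ratio of FST alone to the subunits was 0.188, 0.190 and 0.143 with DMSO and 0.175, 0.161 and 0.0401 with HC278, where the groups overlapped. These are transcript ratios, and secreted protein was not analysed here.

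**Figure D3:**
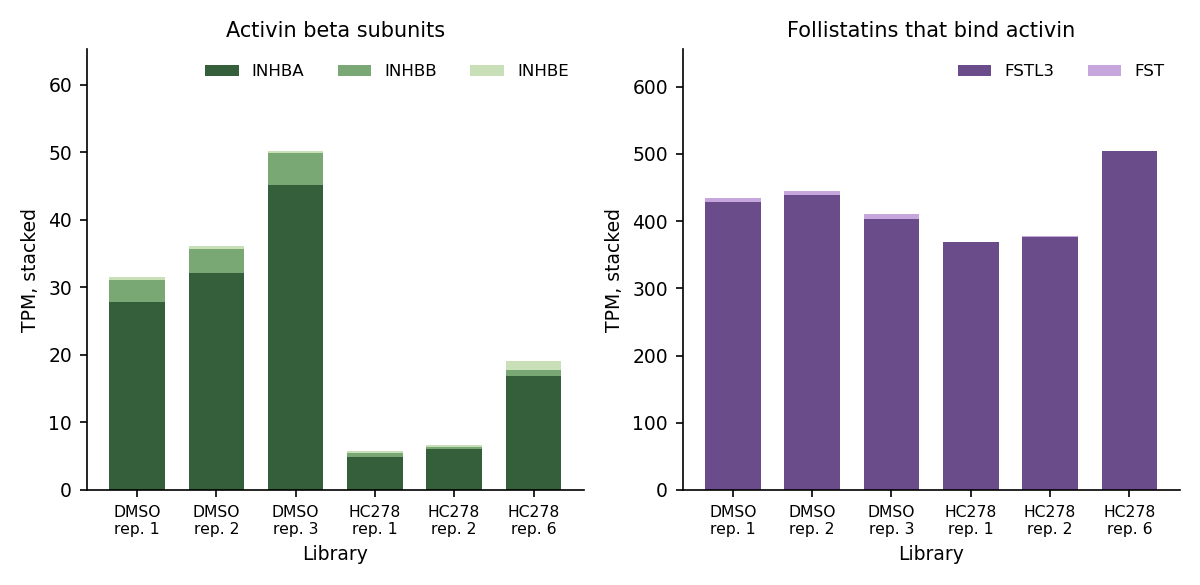
Stacked TPM of the beta subunit genes (left) and of FSTL3 and FST (right) in each library, on linear axes from 0 that differ between the panels. The subunit sum is 31.6 to 50.2 TPM in the DMSO libraries and 5.83 to 19.0 TPM in the HC278 libraries, while the sum of FSTL3 and FST is 411 to 445 and 370 to 504 TPM.

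Genes whose pattern over the 6 libraries was nearest to that of a called member were sought among 12280 genes. These were tested genes that averaged 1 CPM or more over all 6 libraries, with pseudogenes and genes under a clone or LOC symbol passed over. Closeness was measured as the root mean square difference of centred log2 CPM. Nearest to INHBA were PLEKHA7 (0.10), the basement membrane collagen COL4A4 (0.11) and the potassium channel KCND3 (0.12). Nearest to INHBB were the inflammasome sensor NLRP3 (0.27), FRMPD3 (0.30) and F3 (0.35), which encodes tissue factor. Nearest to FST were the hair keratin KRT33B (0.26), LNCOG (0.29) and MBOAT1 (0.33). The log2 differences of these 9 genes lay between -3.30 and -1.82, which their choice by closeness over the same libraries all but fixes. NLRP3, FRMPD3 and MBOAT1 were under 1 CPM on average with HC278, so they met the minimum of 1 CPM through their DMSO level.

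Other genes of the pathway were counted in 5 lists, to be read against the 10.8% of all tested genes called in either direction. The lists were chosen with earlier results of these data known, so their counts and medians are a description. Of 7 tested other receptors of the superfamily (of 9 listed) 0 were called by edgeR, with 1 at an unadjusted p under 0.05, and 0 by DESeq2, and of 17 tested genes of the SMAD machinery (of 18) 1 fell and 0 rose. Of 8 tested other ligands (of 17) 2 rose and 0 fell, and of 6 tested extracellular regulators (of 19) 1 rose and 0 fell. Of 15 target genes of SMAD2 and SMAD3, all tested, 2 fell and 1 rose. The median log2 differences of these lists were -0.09 for receptors, -0.09 for the SMAD machinery, 0.65 for ligands, 0.25 for regulators and 0.03 for targets, against 0.05 over all tested genes. Only those genes that passed the filter on low counts enter these medians.

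Among the ligands, TGFB1 was at 75.5, 75.9 and 64.8 CPM with DMSO and at 130, 124 and 114 CPM with HC278, and rose (log2 0.77, SE 0.12, edgeR adjusted p = 0.0143). TGFB3 rose from 0.515 ± 0.0244 to 1.46 ± 0.0633 CPM (log2 1.497, SE 0.19, edgeR adjusted p = 0.00912). Both encode TGF-beta itself, which signals through TGFBR2 and TGFBR1 to the same SMAD2 and SMAD3. Another TGF-beta gene, TGFB2, was named after its values were seen and had every HC278 library below every DMSO library. It had 0.688, 1.24 and 1.24 CPM with DMSO and 0.105, 0.285 and 0.496 CPM (3, 9 and 17 counts) with HC278. TGFB2 did not pass (log2 -1.80, SE 0.52, edgeR adjusted p = 0.0831). TGFBR1, the type I receptor of TGF-beta, had 17.6, 18.2 and 20.2 CPM with DMSO and 9.46, 12.9 and 16.3 CPM with HC278. It did not pass (log2 -0.53, SE 0.21, edgeR adjusted p = 0.169), but did without HC278 replicate 6 (log2 -0.74, adjusted p = 0.0137) and with the length trend taken out (log2 -0.54, adjusted p = 0.0414). INHA, the alpha subunit that pairs with a beta subunit to form inhibin, was named after its values were seen: it had 1.72, 1.90 and 1.42 CPM with DMSO and 3.54, 2.98 and 2.34 CPM with HC278, and did not pass (log2 0.81, edgeR adjusted p = 0.0776).

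Among regulators, HTRA1, a secreted protease known to antagonise TGF-beta family ligands, rose from 8.77 ± 0.435 to 17.6 ± 0.559 CPM (log2 1.01, SE 0.11, edgeR adjusted p = 0.00655). In the SMAD machinery SMURF2, a ubiquitin ligase that targets SMADs and receptors, fell from 165 ± 17.1 to 63.7 ± 14.6 CPM (log2 -1.37, SE 0.19, edgeR adjusted p = 0.0114). The signal carriers SMAD2 (log2 0.12, adjusted p = 0.564), SMAD3 (log2 0.31, adjusted p = 0.260) and SMAD4 (log2 -0.22, adjusted p = 0.545) did not pass in the same edgeR fit. Without HC278 replicate 6, SMAD4 passed as lower (log2 -0.45, adjusted p = 0.0133).

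Of the SMAD2 and SMAD3 targets, CCN2, which encodes connective tissue growth factor, fell from 54.9 ± 0.673 to 20.3 ± 7.08 CPM (log2 -1.44, SE 0.26, edgeR adjusted p = 0.0234). NEDD9, a scaffold of focal adhesions, fell by 1.31 on the log2 scale (SE 0.24, edgeR adjusted p = 0.0232), and the AP-1 subunit JUNB rose by 1.11 (SE 0.13, edgeR adjusted p = 0.00772). CCN2 is also a standard target of YAP and TEAD.

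The 7 called pathway genes also depended on single libraries. None passed without DMSO replicate 1 or 2, HTRA1 and JUNB alone passed without DMSO replicate 3, HTRA1 and CCN2 alone without HC278 replicate 2, and all but CCN2 and NEDD9 without HC278 replicate 1, with adjusted p of those not passing from 0.0532 to 0.110. Without HC278 replicate 6 all 7 passed, and the lists then held 1 higher and 3 lower receptors, 4 and 1 ligands, 2 and 1 regulators, 1 and 6 genes of the SMAD machinery, and 3 and 7 targets, where 40.6% of all genes were called.

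**Figure D4:**
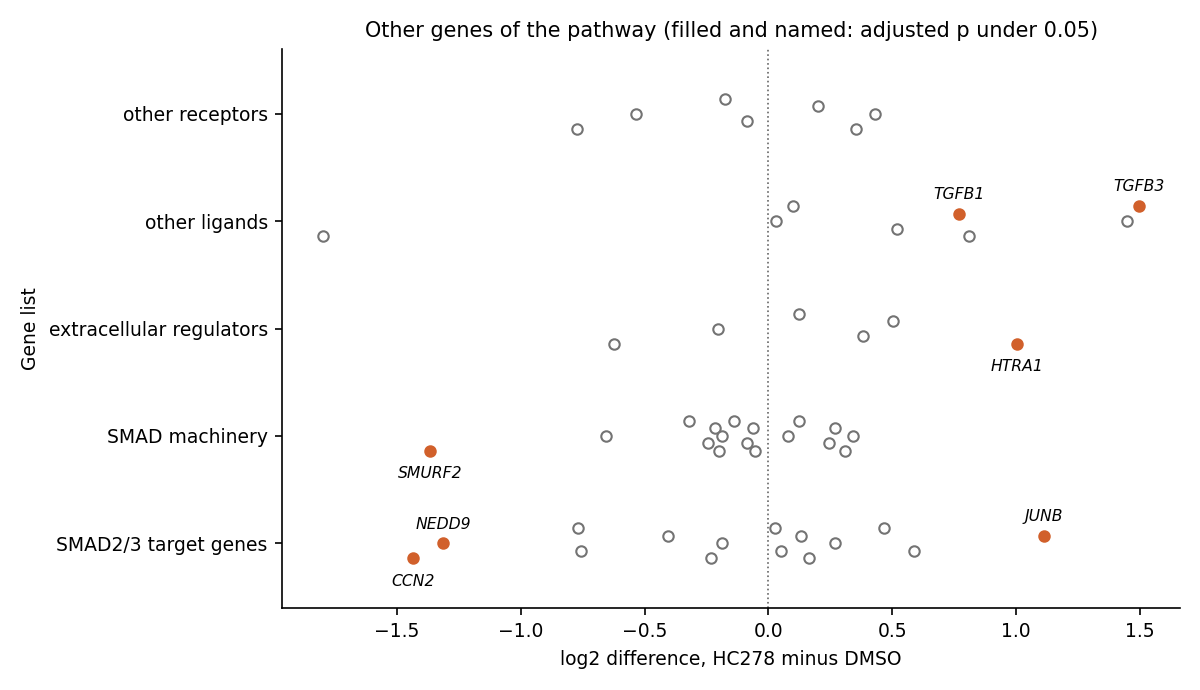
Log2 difference between HC278 and DMSO of every tested gene in 5 lists of other pathway genes, with the 7 called genes filled and named and the others open (points are spread vertically only to keep them apart). Most genes lie near 0, TGFB1, TGFB3, HTRA1 and JUNB are called to the right, and SMURF2, CCN2 and NEDD9 to the left.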

How the data were processed

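The deposited table gives 4 measures for each of 6 libraries. Per the file headers, the authors deposited whole-number counts per gene, TPM, RPKM and a measure named CPM. Deposited TPM sums to the same total in every library. Deposited RPKM served as an alternative to TPM. The deposited measure that the file headers name CPM sums to between 871859 and 1091291 per library, so it was recorded as a signal of unstated scaling and not used. Per the labels' protocols, cells were kept in DMEM with 10% FBS, RNA came from a Trizol extraction, and an Illumina stranded mRNA kit was used. The submitters' processing notes name build hg38. The aligner, the counter, its strand setting and the gene models: not given in the sources used here.

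Counts were fitted with edgeR 4.0.16 (R 4.3.3; TMM, filterByExpr with a minimum count of 10, glmQLFit and glmQLFTest) over all tested genes, with 3 libraries per group and no covariate. CPM values use the TMM-scaled library size, and the SE is the log2 difference over the square root of F. TMM factors were lowest in HC278 replicate 1 (0.903) and highest in HC278 replicate 6 (1.12). At this depth and scaling 3 counts are worth 0.0876 to 0.105 CPM, which covers counting error only. Alternatives were other scaling factors, DESeq2 1.42.0, limma-voom (limma 3.58.1), other filters, a replicate block, a loess trend (span 0.5) on gene length taken out, and libraries left out. Length was recovered from the counts and RPKM, up to a constant. Exons and pseudogenes came from GENCODE release 29, and promoters from RefSeq. Members, lists and tests were chosen with earlier results of these data known. All 10 members are named, with TGFBR1, SMAD2, SMAD3, SMAD4 and up to 4 called genes per list and direction, and the 3 genes nearest in pattern to INHBA, INHBB and FST. No value column was left unmapped.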

Additional observations from a re-analysis of the deposited data

How the results depend on the processing

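Over 8 other scalings, filters and tools on all 6 libraries, INHBA stayed between -2.03 and -1.89, INHBB between -2.89 and -2.76, FST between -2.75 and -2.60 and FSTL1 between -1.61 and -1.49 on the log2 scale. Upper quartile factors put the median of all genes at 0.12 in place of 0.05. With each library left out in turn, 0 to 4 members were called, INHBA ran from -2.40 to -1.77, INHBB from -3.07 to -2.54, FST from -2.87 to -2.40, FSTL1 from -1.84 to -1.42 and INHBE from 0.18 to 0.88. The same fits called 0 to 6413 genes in all, 0 to 4 other receptors, 0 to 5 other ligands, 0 to 3 extracellular regulators, 0 to 7 genes of the SMAD machinery and 0 to 10 SMAD2 and SMAD3 targets. With 0 calls, without DMSO replicate 2, 2864 genes had an unadjusted p under 0.05.

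Without both DMSO replicate 3 and HC278 replicate 6, INHBE was at 0.0629, and calls numbered 6322 genes in all, 3 receptors, 6 ligands, 3 regulators, 7 SMAD machinery genes and 10 targets. DESeq2 called 2818 genes, 4 ligands and 6 targets. With the length trend taken out, 2691 genes, 1 receptor, 4 ligands and 5 targets were called. The cause of these changes was not tested.

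The titles number replicates 1 and 2 in both groups, and only these can form pairs. Deviations from the group means correlated at 0.517 for replicates 1 and 0.183 for replicates 2, but with 2 pairs and no label for a shared batch the samples share only a number. With the replicate block, which leaves 1 residual degree of freedom and takes DMSO replicate 3 and HC278 replicate 6 out of the difference, 8175 genes were called, 3 receptors, 6 ligands, 3 regulators, 10 SMAD machinery genes and 10 targets, and INHBE was at 0.0659. The same 4 members were called, among the 8175 of 15510 tested genes. SMAD3 (log2 0.23, adjusted p = 0.0214), SMAD4 (log2 -0.40, adjusted p = 0.00135) and TGFBR1 (log2 -0.69, adjusted p = 0.000531), not called by edgeR without the block, passed with it.

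NEDD9 did not pass with library size alone (log2 -1.30, adjusted p = 0.0529). In the 250 bases before the start alone, the SMAD motif occurred in 2 members in place of 4. Counts of 9 to 23 for INHBB, 13 to 33 for INHBE and 18 to 33 for FST in the HC278 libraries limit the precision of their levels.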
